A study of Mus musculus with 6 samples.

Results

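Central myelin genes are the genes whose products build the myelin sheath that oligodendrocytes wrap around axons of the brain and spinal cord, together with a factor that switches them on. Expression of 10 of them, Opalin, Mag, Mog, Mobp, Mbp, Cnp, Cldn11, Omg, Ermn and Myrf, was followed in enterospheres, which are free-floating spheroids grown from the muscle layers of the newborn mouse gut. The genes were taken by symbol from the platform annotation, where each had 1 transcript cluster, and they are 10 of the 19938 genes measured. Total RNA of 6 cultures, each made from 3 neonatal C57BL/6 mice no older than 12 hours, was hybridised to 1 GeneChip Mouse Gene 1.0 ST array per culture. In the proliferation group, 3 cultures spent all 11 days in proliferation medium with EGF and FGF. In the differentiation group, 3 cultures spent 9 days in proliferation medium and then 2 days in a medium that lacks both growth factors and contains ascorbic acid-2-phosphate, so the loss of the factors and the added ascorbate cannot be told apart. According to the methods there were 3 independent experiments, each with pups of a single litter, and picked spheres were then kept in either medium, but the labels do not say which arrays belong to the same experiment. The labels and the paper's methods differ on the number of pups per culture and on the dose of EGF, which the labels give as 10 ng/mL beside FGF at 20 ng/mL. The spheres hold neural progenitors, glia, neurons, smooth muscle cells and fibroblasts, and in such mixed samples more cells of a type cannot be told apart from more RNA per cell.

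Oligodendrocytes make the myelin of the central nervous system, whereas Schwann cells make that of peripheral nerves. Enteric glia, the glia of the gut wall, descend from the neural crest as Schwann cells do, and as a rule they form no myelin sheath although they express some genes of it. In oligodendrocytes the transcription factors Olig2 and Sox10 act before Myrf, which is cleaved from a membrane-bound precursor and then turns on genes such as Mbp, Mog and Mag late in differentiation.

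All values are on the log2 scale and were normalized with RMA before deposit. Arrays of 1 group correlated at 0.988 to 0.995 and arrays of different groups at 0.983 to 0.989, and the small number of arrays limits the precision. Differentiation minus proliferation was tested in limma. The p-values were adjusted by Benjamini-Hochberg over the 35556 clusters of the array, and the words rose and fell are kept for genes with an adjusted p under 0.05. No detection call was used. As a gauge of dim signal, the 1194 measured genes for olfactory and vomeronasal receptors, which are known from the nose and hardly expected in gut cultures, had mean values with a median of 3.90 and a 95th percentile of 5.41. Brightness also depends on the probes of a cluster, so levels of different genes are not compared as amounts of RNA.

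In differentiating enterospheres 4 of the 10 central myelin genes rose and 0 fell, while 6 did not pass. At an unadjusted p under 0.05 from limma the count was 7, with Myrf, Mobp and Omg added, and Omg was the lower one among them. Over all genes 19.1% lay under that p in either direction. Among all 19938 genes 2.94% rose and 2.97% fell. The 4 that rose were Opalin, Cldn11, Mbp and Cnp, by 39.2-fold, 3.77-fold, 1.77-fold and 1.73-fold. Mag, Mog, Mobp and Ermn, of which the first 3 encode well-known proteins of the oligodendrocyte sheath, stayed dim in both groups, with log2 differences between 0.06 and 0.21. Myrf had a log2 difference of 1.34 and Omg one of -0.87, and neither passed. The median log2 difference of the 10 genes was 0.50, beside 0.02 over all genes. Opalin, Mbp, Cnp, Omg and Myrf are named in the paper that reported these arrays, so their choice is not independent of these data.

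Opalin (transcript cluster 10467529) encodes a small glycosylated membrane protein found at the inner loops and paranodes of oligodendrocyte myelin. Its log2 values in proliferation were 4.69, 4.90 and 4.58 in replicates 1, 2 and 3, and in differentiation 10.02, 9.78 and 10.26. All 3 proliferation arrays lay within the range of the nose receptors, and the lowest differentiation array lay 4.88 above the highest proliferation array. The log2 difference was 5.29 (standard error 0.15, 95% interval 4.95 to 5.64, adjusted p = 1.61e-04 from limma, n = 3 arrays per group), which ranked highest of all 19938 genes. As the lower level is that of dim clusters, the size of the fold is less certain than its direction. With any 1 array left out the log2 difference lay between 5.17 and 5.41 and the gene passed the test.

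Cldn11 (transcript cluster 10491313) encodes claudin-11, which forms the tight junctions between the layers of central myelin. Its log2 values were 7.59, 7.10 and 8.26 in proliferation and 9.57, 9.50 and 9.61 in differentiation. The proliferation arrays were spread widely (SD 0.58) and the differentiation arrays closely (SD 0.06), with no overlap between them. The log2 difference was 1.91 (standard error 0.27, adjusted p = 0.0132 from limma), and the call ended without differentiation replicate 1 or 2 (adjusted p = 0.0727 and 0.0514). Claudin-11 is also known from other barriers, such as that of the testis.

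Mbp (transcript cluster 10457022) encodes myelin basic protein, which holds the cytoplasmic faces of compact myelin together. Log2 values of Mbp were 6.75, 6.77 and 6.82 in proliferation and 7.53, 7.56 and 7.71 in differentiation. The arrays of each group lay close together and the groups were apart, with a log2 difference of 0.82 (adjusted p = 0.00571 from limma, standard error 0.08). This call held with each array left out. The Mbp gene also gives rise to golli transcripts, which are found outside myelinating cells, and the single value of the cluster does not separate them from the transcripts of the myelin protein.

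Cnp (transcript cluster 10381154) encodes 2',3'-cyclic nucleotide phosphodiesterase, an enzyme of the uncompacted cytoplasmic channels of myelin that binds the cytoskeleton. On the log2 scale the arrays read 11.29, 11.49 and 11.51 in proliferation and 12.26, 12.25 and 12.15 in differentiation. The cluster was bright on every array, and the groups did not overlap. The log2 difference was 0.79 (standard error 0.09, adjusted p = 0.00778 from limma), and the call ended without differentiation replicate 1 (adjusted p = 0.0579).

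**Figure D1:**
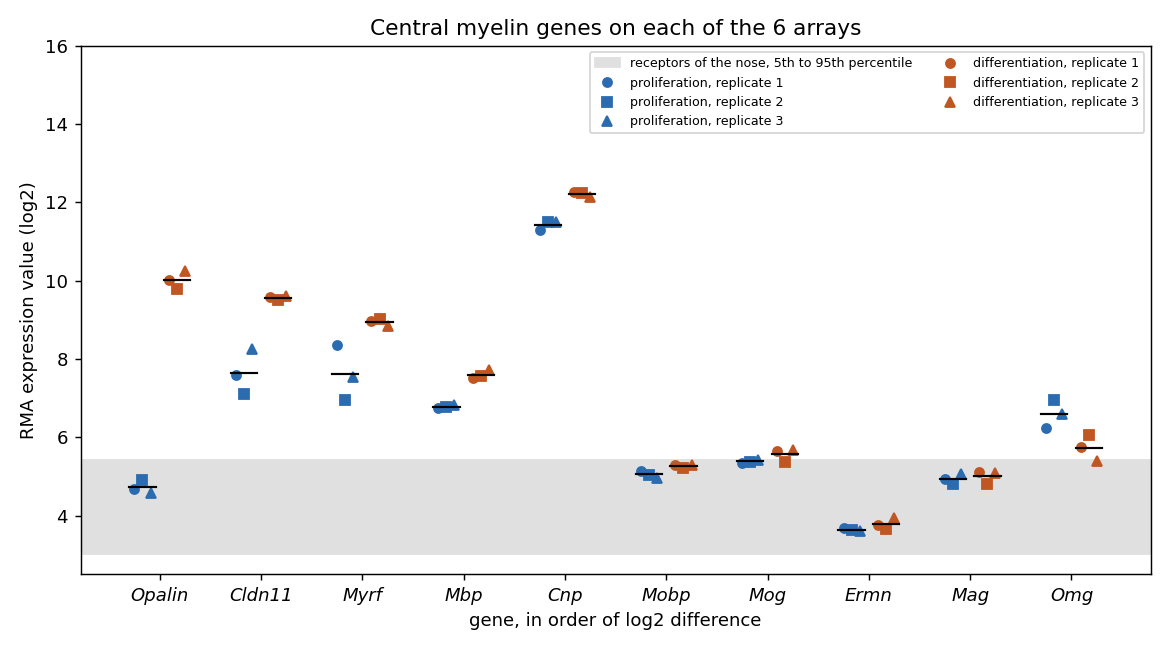
Log2 RMA expression value of each central myelin gene (vertical axis) on 3 proliferation arrays (blue) and 3 differentiation arrays (orange), with genes ordered by log2 difference along the horizontal axis. Symbols give the replicate number, black bars the group means, and the grey band the 5th to 95th percentile of the mean values of 1194 nose receptor genes. Opalin leaves the band in differentiation at 9.78 to 10.26, while Mag, Mobp and Ermn lie inside it on every array.

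Myrf (transcript cluster 10465916) encodes myelin regulatory factor, the transcription factor of the group. Its log2 values were 8.35, 6.95 and 7.53 in proliferation and 8.98, 9.02 and 8.85 in differentiation. Every differentiation array was higher than every proliferation array, but the proliferation arrays differed among themselves (SD 0.71, against 0.09 in differentiation), and replicate 1 came within 0.50 of the lowest differentiation array. The log2 difference of 1.34 (standard error 0.32, 95% interval 0.57 to 2.10) had an adjusted p of 0.0809 from limma and so did not pass. Without proliferation replicate 1 the log2 difference was 1.71 (adjusted p = 0.0115 from limma). In the other 5 fits with 1 array left out it lay between 1.01 and 1.39 and did not pass (adjusted p = 0.104 to 0.256 from limma), the lowest being that without proliferation replicate 2. With both the fit and the adjustment made over only the 21789 clusters with 1 gene symbol, the adjusted p was 0.029 from limma.

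Omg (transcript cluster 10388954) encodes oligodendrocyte myelin glycoprotein, a lipid-anchored surface protein that inhibits the outgrowth of neurites and is also made by neurons. Log2 values of Omg were 6.25, 6.95 and 6.61 in proliferation and 5.75, 6.06 and 5.40 in differentiation. All differentiation arrays were lower, by a gap of 0.19 between the nearest arrays of the groups, which is smaller than the SD within either group (0.35 and 0.33). Its log2 difference of -0.87 (standard error 0.22, 95% interval -1.40 to -0.33) had an adjusted p of 0.101 from limma. It passed with both the fit and the adjustment made over only the clusters with 1 gene symbol (adjusted p = 0.0391 from limma). In none of the 6 fits with 1 array left out did Omg pass (adjusted p = 0.0711 to 0.289 from limma).

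Mag encodes myelin-associated glycoprotein, a sialic acid-binding adhesion protein of the innermost myelin layer. Its log2 values were 4.94, 4.80 and 5.06 in proliferation and 5.12, 4.80 and 5.07 in differentiation, so the groups overlapped. The log2 difference was 0.06 with a 95% interval of -0.22 to 0.35 (adjusted p = 0.856 from limma), which corresponds to ratios from 0.86 to 1.27. Mog encodes myelin oligodendrocyte glycoprotein, found on the outer surface of the sheath. It had log2 values of 5.35, 5.38 and 5.42 in proliferation and 5.64, 5.38 and 5.67 in differentiation, at or just above the upper edge of the nose receptor range, and a log2 difference of 0.18 (95% interval -0.06 to 0.42, adjusted p = 0.471 from limma).

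Mobp encodes myelin-associated oligodendrocyte basic protein, a further protein of compact myelin. Log2 values were 5.13, 5.04 and 4.97 in proliferation and 5.28, 5.22 and 5.29 in differentiation. The groups did not overlap but lay 0.09 apart at the nearest arrays, and the log2 difference of 0.21 (95% interval 0.02 to 0.41) did not pass (adjusted p = 0.262 from limma). Ermn encodes ermin, a cytoskeletal protein of late oligodendrocytes. Its log2 values ran from 3.60 to 3.67 in proliferation and from 3.67 to 3.93 in differentiation, below the median of the nose receptors in each group (3.86 and 3.93). The log2 difference was 0.15 (95% interval -0.07 to 0.37, adjusted p = 0.524 from limma).

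**Figure D2:**
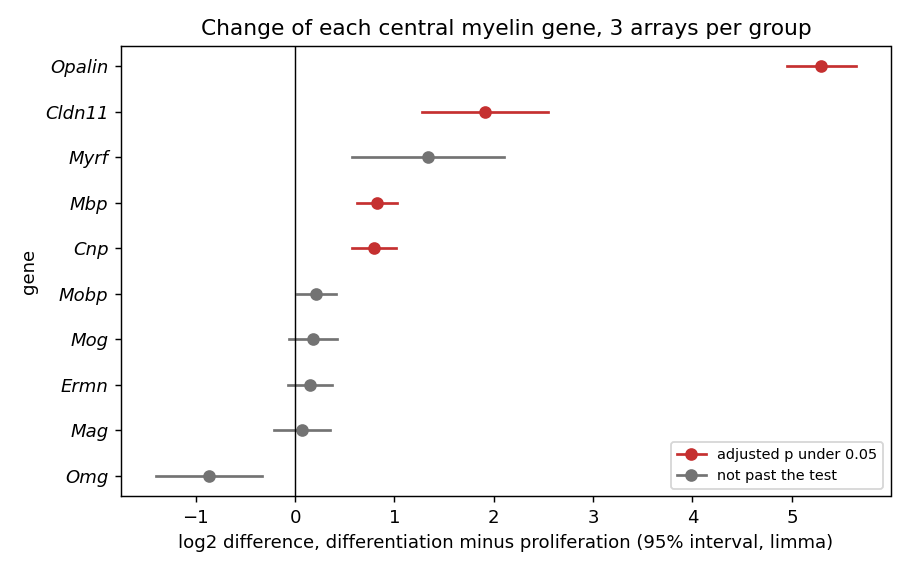
Log2 difference of each central myelin gene, differentiation minus proliferation (horizontal axis), with its 95% interval from limma over 3 arrays per group. Red genes passed at an adjusted p under 0.05 and grey genes did not. Opalin lies at 5.29, the other 3 red genes between 0.79 and 1.91, and Omg alone lies below 0, at -0.87.

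In 6 of the 10 genes every differentiation array was above every proliferation array, and in 1, Omg, every one was below. Over all genes the shares were 14.6% and 12.9%. With 3 arrays against 3, a two-sided exact permutation test of a single gene cannot give a p below 0.1, which these 7 genes reached. Mean levels exceeded the 95th percentile of the nose receptors in 6 of the 10 genes in proliferation and in 7 in differentiation, the added gene being Opalin. Mag, Mobp and Ermn exceeded it in neither group.

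The bases before the start of transcription are shown for Opalin, Cldn11 and Cnp, the risen genes with an entry in the RefSeq promoter table (GRCm38.p6), and for Mog as a sheath gene that did not pass. Each line gives the 250 bases before the annotated start, 5′ to 3′ on the strand of the gene, and capitals mark letters of motifs searched on both strands. A motif of MYRF was searched as CTGGCAC, with CTGGTAC as its second form. For SOX factors the letters were AACAAAG, or AACAATG as a variant. E-boxes, the sites of basic helix-loop-helix factors such as Olig1 and Olig2, were searched as CAGCTG, which reads the same on both strands, or else as CATCTG. No match overlapped another in the sequences shown. Opalin lies at chr19:41077114-41077363 on the minus strand, Cldn11 at chr3:31149670-31149919 on the plus strand, Cnp at chr11:100574689-100574938 on the plus strand and Mog at chr17:37023399-37023648 on the minus strand.
Opalin: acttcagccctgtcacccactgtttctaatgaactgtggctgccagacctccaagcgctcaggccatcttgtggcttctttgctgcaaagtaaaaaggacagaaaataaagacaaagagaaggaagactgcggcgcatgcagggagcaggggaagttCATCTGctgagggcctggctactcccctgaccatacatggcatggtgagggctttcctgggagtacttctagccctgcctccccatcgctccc
Cldn11: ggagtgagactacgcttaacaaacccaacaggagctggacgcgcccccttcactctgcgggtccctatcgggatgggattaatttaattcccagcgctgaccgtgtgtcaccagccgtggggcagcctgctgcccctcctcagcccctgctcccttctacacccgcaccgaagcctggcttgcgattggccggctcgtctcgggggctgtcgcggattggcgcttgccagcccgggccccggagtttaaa
Cnp: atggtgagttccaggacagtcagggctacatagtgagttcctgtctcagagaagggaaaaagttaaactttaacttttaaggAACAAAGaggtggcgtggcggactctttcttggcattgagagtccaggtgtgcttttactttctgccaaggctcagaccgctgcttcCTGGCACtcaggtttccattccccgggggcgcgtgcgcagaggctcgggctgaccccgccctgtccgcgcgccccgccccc
Mog: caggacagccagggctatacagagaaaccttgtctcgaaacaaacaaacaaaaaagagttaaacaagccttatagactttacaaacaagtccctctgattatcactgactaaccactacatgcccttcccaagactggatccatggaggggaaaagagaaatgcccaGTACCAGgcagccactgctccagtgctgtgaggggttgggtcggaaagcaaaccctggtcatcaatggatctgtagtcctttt

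The Opalin window held 1 match, the E-box CATCTG, which starts 93 bases before the start and occurs in 14.4% of all 32851 promoters of the table. The Cldn11 window held 0 matches. The Cnp window held CTGGCAC at 81 bases and AACAAAG at 168 bases before the start, letters that occur in 4.19% and 5.03% of all promoters. The Mog window held CTGGTAC at 83 bases before the start (1.83% of all promoters), on the opposite strand. Of the other members, the Mobp window held AACAAAG 4 times, the Ermn window had 0 matches, and 2 of the 3 Mag windows, which overlap each other, held the same CTGGCAC. The palindromic E-box CAGCTG, present in 13.0% of all promoters, was in none of these windows, and neither was AACAATG, present in 3.29%. Mbp, Myrf and Omg had no entry. Such matches are a description of letters and not of binding, and they were found in genes that rose as well as in genes that did not pass.

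The genes around the central myelin genes were followed in 8 lists with 109 further genes measured, of which 18 rose and 7 fell. The lists overlap, and they were drawn up with earlier results of these arrays known. Of 13 other proteins of oligodendrocyte myelin, 4 rose, 1 fell and 8 did not pass (median log2 difference 0.17). Mal, a proteolipid of myelin that also sorts membranes in epithelia, went from 6.35, 6.69 and 6.94 in proliferation to 8.61, 8.01 and 9.00 in differentiation (log2 difference 1.88, adjusted p = 0.0139 from limma). Tspan2, a tetraspanin, Plekhb1, a membrane protein with a PH domain, and Cd9, another tetraspanin, rose with log2 differences of 1.22, 0.91 and 0.58. Pllp, plasmolipin, was the only gene of the list that fell, with a log2 difference of -0.64 (adjusted p = 0.0219 from limma). A further 5 of the 8 that did not pass had negative differences, from -0.56 for Ppp1r14a, whose groups did not overlap, to -0.03 for Cd82.

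Of 8 genes of myelin lipids and related enzymes 3 rose and 0 fell (median 0.35). Enpp6, a choline phosphodiesterase known from newly formed oligodendrocytes, went from 5.33, 5.71 and 5.59 to 8.29, 7.92 and 8.33. Aspa, which frees acetate from N-acetylaspartate, went from 8.39, 7.79 and 8.53 to 10.49, 10.62 and 10.54. These are the largest differences of that list, 2.64 and 2.31 in log2 units, with adjusted p-values of 0.00134 and 0.00318 from limma, with no overlap between the groups. Fa2h, which hydroxylates the fatty acids of myelin galactolipids, rose by 0.63 (adjusted p = 0.0113 from limma). Ugt8a, the enzyme that makes galactosylceramide, the lipid most typical of myelin, had values within the nose receptor range in both groups and a log2 difference of 0.03 (adjusted p = 0.934 from limma).

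Among 28 regulators of oligodendrocyte differentiation 2 rose, 2 fell and 24 did not pass (median 0.11). Olig1 went from 8.85, 9.04 and 8.96 to 10.33, 10.30 and 10.45, and St18, a zinc finger factor, from 5.86, 6.03 and 5.91 to 7.32, 7.17 and 7.23. Their log2 differences were 1.41 and 1.31 (adjusted p = 0.00192 and 0.00206 from limma). Olig2 and Sox10, which act before Myrf, had log2 differences of 0.68 and 0.28 and did not pass (adjusted p = 0.147 and 0.179 from limma). In both, all differentiation arrays were higher, as in 14.6% of all genes. The 2 that fell were Tmem98, a membrane protein that binds the Myrf precursor and blocks its cleavage, and Sox5, which delays oligodendrocyte maturation, with log2 differences of -0.82 and -0.66 (adjusted p = 0.0346 and 0.0493 from limma).

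Markers of oligodendrocyte precursors gave 0 increases and 2 decreases among 13 measured (median -0.15). Cspg4, the proteoglycan NG2, went from 10.36, 10.46 and 10.30 to 8.76, 8.82 and 8.86, a log2 difference of -1.56 (adjusted p = 0.00125 from limma). Lhfpl3 fell with a log2 difference of -0.79 (adjusted p = 0.0404 from limma). Another 4, Ptprz1, Xylt1, Cspg5 and Matn4, had log2 differences of -0.83, -0.71, -0.66 and -0.63 with all differentiation arrays lower. These did not pass (adjusted p from 0.0503 to 0.138 from limma). Over all genes 12.9% had every differentiation array lower. C1ql1, Cacng4, Bcan, Pcdh15, Vcan and Neu4 had overlapping groups, with log2 differences of -0.03, -0.04, -0.04, 0.03, 0.08 and 0.18, and did not pass. Pdgfra, the PDGF receptor of precursors and also of fibroblasts, had overlapping groups and a log2 difference of -0.15 (adjusted p = 0.805 from limma). Gpr17, a receptor of cells about to differentiate that was listed among the regulators above, had a log2 difference of -0.02 (adjusted p = 0.95 from limma).

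Of 16 genes of Schwann cell myelin 3 rose and 1 fell (median 0.12). Gldn, gliomedin, which gathers sodium channels at peripheral nodes, went from 7.52, 5.80 and 7.39 to 9.56, 9.42 and 9.36 (log2 difference 2.54, adjusted p = 0.0249 from limma), and replicate 2 was lowest in proliferation, as it was for Myrf and Cldn11. Ndrg1 and Lgi4, both needed for healthy peripheral myelin, rose by 0.70 and 0.53, while Pmp22, a main protein of compact peripheral myelin, fell by 0.52. Egr2, the factor that switches on Schwann cell myelin, had a log2 difference of 0.52 (adjusted p = 0.317 from limma).

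At the junction of axon and glia 3 of 14 genes rose and 0 fell (median 0.23), namely Nrcam, Cadm4 and Cadm3 with log2 differences of 1.32, 0.74 and 0.52. Among 9 genes of glial connexins and metabolic support, Trf, transferrin, fell with a log2 difference of -1.43 (adjusted p = 0.00346 from limma) and the other 8 did not pass. Mag and Omg are ligands of the Nogo receptor complex, and of 9 genes of that complex and its partners 3 rose and 0 fell (median 0.08). Tnfrsf19, also called TROY, went from 7.03, 6.26 and 6.49 to 8.55, 8.59 and 8.77 (log2 difference 2.04, adjusted p = 0.00486 from limma). Ngfr, the p75 receptor, and Rtn4, which encodes Nogo, rose by 0.79 and 0.37. The ligand-binding receptors Rtn4r and Rtn4rl2 and the co-receptor Lingo1 had log2 differences of 0.08, -0.03 and 0.10 and did not pass (adjusted p = 0.776, 0.957 and 0.736 from limma). The third receptor of that family, Rtn4rl1, had a log2 difference of -0.31 with all differentiation arrays lower, and did not pass either (adjusted p = 0.241 from limma).

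Of these 25 related genes, 9 passed with each array left out in turn, namely Plekhb1, Aspa, Enpp6, Olig1, St18, Cspg4, Nrcam, Trf and Tnfrsf19. Mal, Tspan2 and Ngfr lost the call only without differentiation replicate 1 (adjusted p = 0.0766, 0.0512 and 0.0561 from limma). Fa2h and Ndrg1 passed in 4 of the 6 fits, failing without proliferation replicate 3 or differentiation replicate 1, and Cadm4 in 3. Cd9 and Gldn passed in 2, Pllp, Tmem98, Lhfpl3, Pmp22, Lgi4 and Cadm3 in 1, and Sox5 and Rtn4 in 0.

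**Figure D3:**
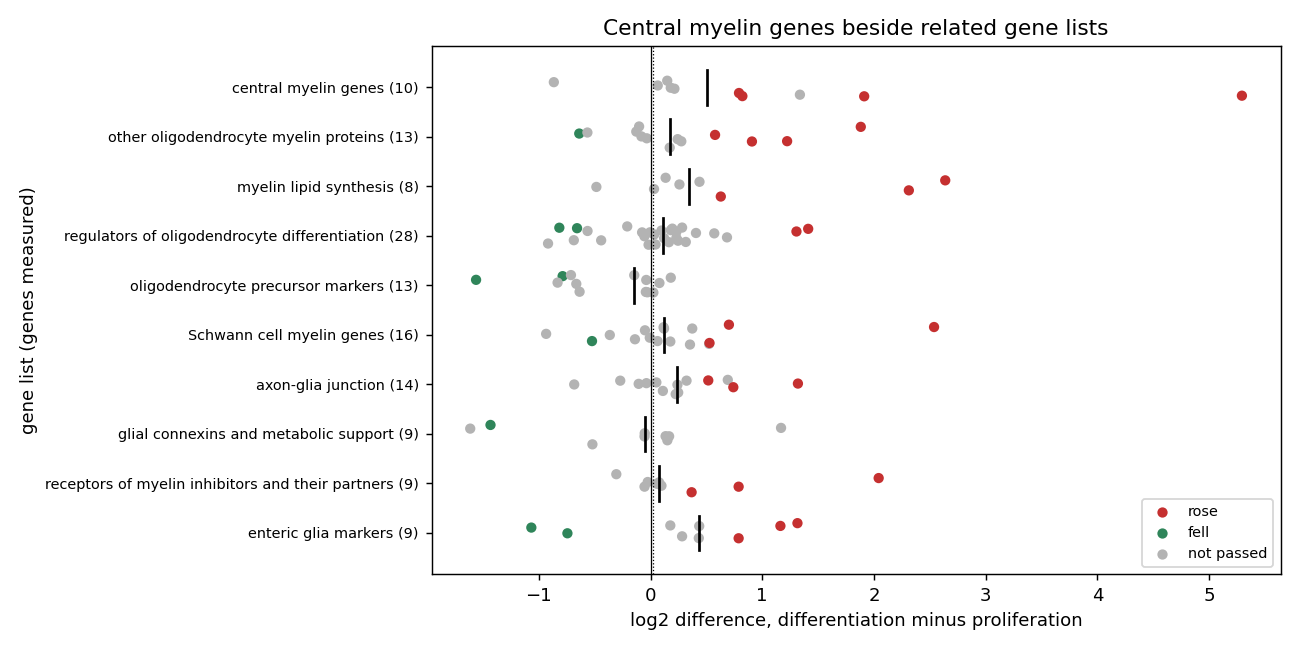
Log2 difference, differentiation minus proliferation (horizontal axis), of single genes in the lists named on the vertical axis (genes measured in brackets), from 3 arrays per group. Red marks genes that rose, green those that fell and grey those that did not pass the limma test, black bars are medians of the lists, the dotted line is the median of all genes (0.02), and the scatter within a list has no meaning. Opalin, at 5.29, lies beyond every other point, and the 2 coloured points of the precursor markers both lie below 0.

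Some markers of other cells changed as well, up or down, and their part in the changes was not tested. Among the defining markers of oligodendrocytes, 7 of 8 were measured, of which Mbp rose, and Mag, Mobp and Ugt8a lay within the nose receptor range in both groups. The log2 of their summed signal ran from 11.68 to 11.95 in proliferation and from 12.10 to 12.18 in differentiation, and Sox10, which is also an enteric glia marker and did not pass, made up 69.7% to 78.4% of that sum on the 6 arrays. A sum of signals is weighted by bright clusters and is no amount of RNA. Of 9 markers of enteric glia 3 rose, namely Gfap, Entpd2 and Ngfr, with log2 differences of 1.16, 1.32 and 0.79, and 2 fell, namely S100b and Fabp7, with log2 differences of -0.74 and -1.07. The log2 of their summed signal ran from 14.03 to 14.28 in proliferation and from 14.40 to 14.46 in differentiation. Ngfr, the brightest, made up 13.0% to 23.2% of it. The 5 measured defining markers among them gave overlapping log2 sums, 12.98 to 13.31 in proliferation and 13.12 to 13.25 in differentiation. Defining markers of Schwann cells (3 measured) summed to 13.06 to 13.24 in proliferation and 12.89 to 12.99 in differentiation. Pmp22, which fell, made up 51.1% to 66.9% of that sum. Egr2 and Sox10 had log2 differences of 0.52 and 0.28 and did not pass. Defining markers of oligodendrocyte precursors (4 measured) summed to 12.540 to 12.625 in proliferation and 12.365 to 12.448 in differentiation. Gpr17 made up 46.3% to 56.1% of that sum. Among these precursor markers Cspg4 alone fell, while Olig2, Pdgfra and Gpr17 had log2 differences of 0.68, -0.15 and -0.02. Of 5 smooth muscle markers 3 rose, with a summed signal of 10.07 to 10.12 in proliferation and 10.68 to 10.83 in differentiation (log2), of which Acta2 made up 54.4% to 70.6%. Of 5 neuron markers Tubb3 alone rose (log2 difference 0.98). Of 2 markers of interstitial cells of Cajal Ano1 fell (log2 difference -1.43). The other, Kit, had a log2 difference of -0.85 with all differentiation arrays lower and did not pass (adjusted p = 0.0501 from limma). No marker of macrophages (5 measured), fibroblasts (4) or endothelium (3) passed, and the macrophage genes Ptprc, Csf1r, Aif1 and Adgre1 lay in the nose receptor range.

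The pattern over the 6 arrays was compared between genes as the root mean square difference of log2 values, each gene centred on its own mean. Nearest to Opalin were Lgals3, which encodes galectin-3, Aqp1, a water channel, and Casq2, a calcium-binding protein of muscle, at distances of 0.86, 0.98 and 1.08. They had smaller log2 differences than Opalin, with fold changes of 12.2, 10.2 and 9.14. By increase they ranked 2, 3 and 4 among all genes. As Opalin ranked highest, this distance favours the genes with the next largest increases. Nearest to Myrf were Klhl30, Ecm1, an extracellular matrix protein, and Cyp1b1, a cytochrome P450, at distances of 0.14, 0.15 and 0.15. Each of these was lowest in proliferation replicate 2 and highest in replicate 1 among the proliferation arrays, as Myrf was. Among the differentiation arrays Ecm1 ran in the opposite order to Myrf. As these genes were chosen for a small distance on the same arrays, the shared proliferation order follows in part from the choice. Their fold changes were 2.42, 2.58 and 2.61, and they passed the test with adjusted p from 0.019 to 0.0288 from limma, where Myrf did not. The likeness is a description over 6 arrays that share 2 groups.

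**Figure D4:**
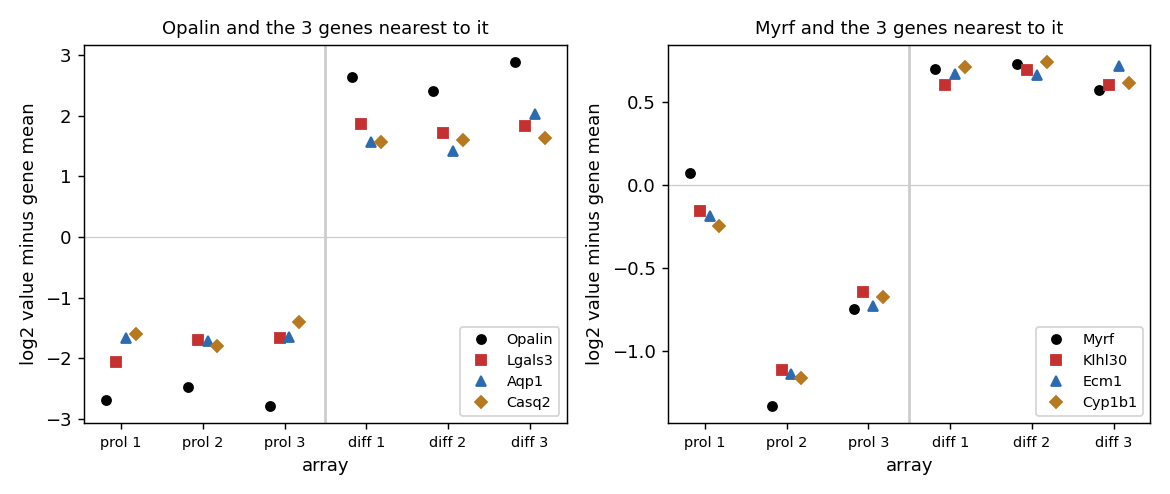
Log2 value minus the gene's own mean over the 6 arrays (vertical axis) on each array (horizontal axis) for Opalin, on the left, and Myrf, on the right, each with the 3 genes at the smallest root mean square distance. The genes beside Opalin sit closer to 0 than Opalin on every array, while those beside Myrf share its order among the proliferation arrays, with replicate 2 lowest. In differentiation the orders differ, as Myrf was lowest and Ecm1 highest in replicate 3.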

How the data were processed

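Gene expression of 3 proliferation and 3 differentiation cultures was measured with 1 array each, and groups and replicate numbers came from the sample titles. The deposited values are log2 expression values, which the authors normalized with RMA in Partek Software after scanning with AGCC and checking with Expression Console. Which genome build and annotation these values rest on is not given in the sources used here. Genes were named through the platform's annotation, in which 21789 of 35556 transcript clusters carried 1 symbol, and the brightest cluster stood for a gene (999 genes had several, the 10 members 1 each). The test was two-sided, by lmFit and eBayes of limma 3.58.1 under R 4.3.3, with no filter and with adjustment over every cluster. RMA as usually run equalises the distributions of the arrays, so a shift shared by most genes would not be seen. The methods describe 3 independent experiments, but no source used here ties an array to its experiment, so the groups were compared as unpaired. The members, the lists of related genes, the 95th percentile of nose receptors and the motifs were chosen with earlier results of these data known.

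Named were all members, in each related list up to 4 called genes with the largest change and any that alone went against its list, and the 3 genes nearest to Opalin and to Myrf; uncalled genes named beside them were chosen after their values were seen. One list name was matched through a RefSeq synonym. Tried as alternatives were a block for the replicate number, robust limma-trend, cyclic loess, median centring, a filter on dim clusters, clusters with 1 symbol, the mean of a gene's clusters, each array left out, and the methods' t-test and limma without correction at 1.5-fold. The comparison was tested on simulated arrays, 3 per group and 35556 clusters, in which 200 clusters were changed. It found 34.8% of changes of 1.5-fold, 51.9% of those of 2-fold and 82.5% of those of 4-fold. Of its 114 calls 4 were false. A larger share of genes was called in the data than was changed in the simulation. These rates are therefore not the sensitivity of the reported comparison. Python 3.11.15 with pandas 2.3.3 and matplotlib 3.10.9 made tables and plots.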

Additional observations from a re-analysis of the deposited data

How the results depend on the processing

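The number of central myelin genes past the test was 4 in the comparison as reported and also under a replicate block, robust limma-trend, cyclic loess and median centring. It was 5 among clusters at or above the median mean, where Myrf was added, and 6 with clusters of 1 symbol, with the mean of a gene's clusters and at the uncorrected 1.5-fold thresholds by limma or the methods' t-test, where Myrf and Omg were added. The shares of all genes past those settings are not given here, so the counts of 5 and 6 have no background beside them. The methods' t-test with Benjamini-Hochberg adjusted p-values left 2, Opalin and Mbp. With 1 array left out in turn the number ran from 2 to 5, with 2 (Opalin and Mbp) without differentiation replicate 1. The related genes past the test numbered 25 as reported, 5 by that adjusted t-test, and from 9 to 29 with 1 array left out, the lower counts being 12 when proliferation replicate 3 was absent and 9, 14 or 15 when differentiation replicate 1, 2 or 3 was. The log2 difference of Mag ran from -0.0024 to 0.16 with 1 array left out, and no other member changed its direction under any alternative run.

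The labels do not say that a replicate number marks an experiment, and arrays of the same number did not deviate together. Deviations from the group means correlated by -0.0030, 0.09 and -0.07 for numbers 1, 2 and 3. For arrays of unlike number the correlations ran from -0.17 to 0.16, the highest being proliferation replicate 1 with differentiation replicate 3. The numbers may therefore not mark the 3 experiments, and a pairing by experiment was not tested. The replicate block gave 4 members and 17 related genes past the test. The causes of these shifts were not tested, and 3 arrays per group limit what can be called for small or variable changes.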
